A study of Mus musculus with 4 samples.

Results

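The genes described here are the inhibitors of cyclin-dependent kinases and the ARF-MDM2-p53 axis, 9 genes listed by name: Cdkn2a, Cdkn2b, Cdkn2c, Cdkn2d, Cdkn1a, Cdkn1b, Trp53, Mdm2 and Mdm4. Every probe whose platform symbol was one of these names was taken, which gave 18 of 25697 probes on the array and 8 of the 9 genes. Trp53, which encodes p53 itself, was matched to 0 probes and was not analysed here. Cdkn2b and Cdkn2d have 1 probe each, Cdkn2a and Cdkn2c 2 each, and Cdkn1a, Cdkn1b, Mdm2 and Mdm4 3 each.

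The samples were fibroblasts grown from embryos of p19ARF-/- mice and stably transduced with a control vector or with wild-type NSD2, a histone methyltransferase that dimethylates H3K36. Both groups therefore lack p19ARF, and neither received a treatment. RNA was hybridised to Illumina mouse bead arrays, 2 arrays per group (n = 2), which is what limits the precision of the values below. The promoter that drives NSD2, the number of clones and the extent of the p19ARF deletion are not given in the sources used here. Nothing in the labels says whether the arrays came from separate cultures, so a p-value here weighs a difference against array-to-array spread that may be technical.

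As background, the cell cycle inhibitors fall into 2 families. The INK4 proteins (Cdkn2a, Cdkn2b, Cdkn2c, Cdkn2d) bind CDK4 and CDK6 and keep the retinoblastoma protein active, while the CIP/KIP proteins p21 (Cdkn1a) and p27 (Cdkn1b) bind CDK2 complexes. The Cdkn2a locus also encodes p19ARF, which binds MDM2. MDM2 is the ubiquitin ligase that marks p53 for degradation, MDM4 is its relative that restrains p53 transcriptional activity, and Cdkn1a and Mdm2 are themselves p53 target genes, so that MDM2 closes a feedback loop. Cultured fibroblasts accumulate ARF and p16INK4a with passage, and mouse embryo fibroblasts without ARF continue to divide where others stop.

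Cdkn2a has a pair of transcription start sites, which matters for what its signal can mean in these cells. The upstream start opens the first exon of p19ARF and the downstream start the first exon of p16INK4a, and both transcripts share their later exons, read in different frames. The 250 bases before each start are shown to set the pair side by side, from the RefSeq table (GRCm38.p6), upstream at chr4:89294620-89294869 and downstream at chr4:89282193-89282442, both on the minus strand and written 5′ to 3′, with GGGCGG, the GC box, or its complement CCGCCC in capitals.
Cdkn2a, upstream (ARF) start: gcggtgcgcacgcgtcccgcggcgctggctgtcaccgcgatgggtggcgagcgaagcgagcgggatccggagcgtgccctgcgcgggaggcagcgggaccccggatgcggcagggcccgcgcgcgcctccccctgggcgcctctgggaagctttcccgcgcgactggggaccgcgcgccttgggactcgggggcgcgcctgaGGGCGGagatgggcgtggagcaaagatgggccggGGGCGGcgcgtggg
Cdkn2a, downstream (INK4a) start: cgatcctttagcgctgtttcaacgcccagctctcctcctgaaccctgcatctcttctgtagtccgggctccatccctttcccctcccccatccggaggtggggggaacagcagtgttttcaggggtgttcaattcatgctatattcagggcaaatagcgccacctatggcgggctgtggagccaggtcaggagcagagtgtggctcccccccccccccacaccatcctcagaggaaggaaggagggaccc
The upstream window holds 40 CpG dinucleotides and 2 GC boxes at a GC content of 78.4%, and the downstream window 7 and 0 at 60.0%. Probe sequences were not used here, so which of the transcripts a Cdkn2a probe reads is unknown, and a Cdkn2a signal is no check of the p19ARF deletion.

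Cdkn1a and Mdm2 are shown because both are p53 targets, the windows lying at chr17:29090729-29090978 and chr17:29093519-29093768 (plus strand) and at chr10:117710759-117711008 (minus strand). The motif searched was CATGNNNNNNCATG, 1 form of the paired core tetramers of adjoining p53 half-sites. Other forms of the core tetramer were not searched. The motif reads the same on both strands and does not overlap the GC boxes. Capitals mark it and the GC boxes.
Cdkn1a, upstream start: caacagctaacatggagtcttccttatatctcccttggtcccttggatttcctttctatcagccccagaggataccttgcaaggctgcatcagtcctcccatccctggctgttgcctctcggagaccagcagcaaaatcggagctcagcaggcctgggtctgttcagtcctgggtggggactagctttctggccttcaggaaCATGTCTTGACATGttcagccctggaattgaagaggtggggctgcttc
Cdkn1a, downstream start: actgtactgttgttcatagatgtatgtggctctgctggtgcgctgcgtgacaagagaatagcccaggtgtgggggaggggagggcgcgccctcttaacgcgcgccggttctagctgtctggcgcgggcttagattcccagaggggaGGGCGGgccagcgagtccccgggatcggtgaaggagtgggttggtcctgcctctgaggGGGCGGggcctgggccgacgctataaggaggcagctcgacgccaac
Mdm2: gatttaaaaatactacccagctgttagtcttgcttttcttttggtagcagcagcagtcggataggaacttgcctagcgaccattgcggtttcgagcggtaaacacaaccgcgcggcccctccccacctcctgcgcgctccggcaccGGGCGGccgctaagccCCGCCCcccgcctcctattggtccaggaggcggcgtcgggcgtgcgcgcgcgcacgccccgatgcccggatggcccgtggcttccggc
The paired motif lay 48 to 35 bases before the upstream Cdkn1a start and in 1 of the 13 windows of the 9 genes, against 0.490% of 32851 windows of 250 bases in the table. GC boxes were present in 6 of the 13 windows and in 32.7% of all. A match is a description of these letters, and the absence of the paired motif from the Mdm2 window says only that it is not within these 250 bases. It does not show that the Mdm2 window lacks p53 half-sites of another form.

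Values are log2 intensities after background correction and quantile normalization. A probe was called above background on an array when its signal exceeded a threshold of 178 to 219 units estimated from the dim side of that array's distribution. The upper quartile of the signal was 357 and 345 on the replicate 1 arrays (control vector and NSD2) and 490 and 491 on the replicate 2 arrays, so brightness went with the replicate number. For this reason the difference between the replicate 1 arrays and that between the replicate 2 arrays is given beside the pooled value for the main probes. Of the fibroblast markers, 9 of 10 were above background on at least 1 array, Col1a1, Col1a2, Col3a1 and Vim on all 4. The labels also carry a tissue entry of blood, and the blood markers Itgam and Hba-a1 were above background on no array, Ptprc on 1, Cd3e on 2 and Cd14 on 4. The summed linear level of the 3 blood markers above background was 413 to 472 in control cells and 404 to 457 with NSD2. That of the fibroblast markers was 44670 to 46998 and 47902 to 49704. The epithelial markers Krt8 and Krt18 were above background on all 4 arrays and Cdh1 on 3. Their sum was 3095 to 3460 in control cells and 3286 to 3383 with NSD2. The neural marker Nes was above background on 4 arrays and Tubb3 on no array. Of the endothelial markers, Kdr was above it on 2 arrays, and Pecam1, Cdh5 and Tek on no array.

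Of the 18 probes, 10 were above background on all 4 arrays, 1 on 3, 1 on 1 and 6 on none. A difference between the groups could be measured at 11 probes, those above background on at least 1 array of each group, which stand for 7 genes. No member passed the test across all probes (limma, Benjamini-Hochberg adjusted p = 0.9996 for each of the 18 probes), and 0 had an unadjusted p under 0.05. Over all probes 4 of 25697 passed, 0.0156%, and 1005 had an unadjusted p under 0.05. With 2 arrays against 2, an exact permutation test of 1 probe cannot give a two-sided p below 0.333.

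**Figure D1:**
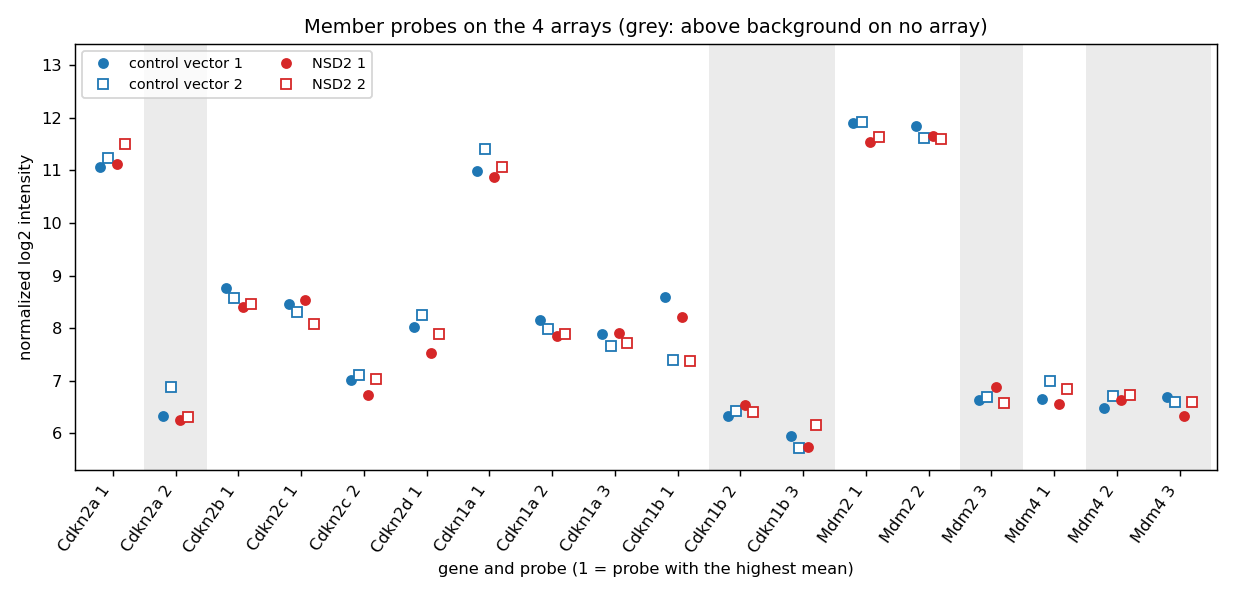
Normalized log2 intensity (vertical axis) of the 18 probes (horizontal axis, numbered within each gene from the probe with the highest mean) on each of the 4 arrays. Blue points are control vector, red points NSD2, filled circles replicate 1 and open squares replicate 2; grey marks the 6 probes above background on no array, and the 4 points of Cdkn1b probe 1 separate by replicate number and not by group.

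Among the INK4 genes, Cdkn2a was well above background in these cells that lack p19ARF. Its main probe (ILMN_1226950) had a bead signal of 1803 to 3706 units before normalization. It stood at 11.06 and 11.22 in control cells and at 11.13 and 11.50 with NSD2. In the authors' processed intensities, which are linear, the same arrays read 2032 and 2307, and 2165 and 2696. The highest array is NSD2 2, and NSD2 1 lies between the control arrays, so the groups overlap. The difference (NSD2 minus control vector) was 0.17 ± 0.21 (SE, 95% interval -0.28 to 0.63), or 0.07 between the replicate 1 arrays and 0.28 between the replicate 2 arrays. Without NSD2 2 it was -0.01. The second Cdkn2a probe (ILMN_1221177), at 6.25 to 6.88, was above background on no array, and no fold is given for it.

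Cdkn2b, the neighbour of Cdkn2a that encodes p15INK4b, stood at 8.76 and 8.57 in control cells and at 8.40 and 8.46 with NSD2 (probe ILMN_1227240). Both NSD2 arrays lie below both control arrays. The difference was -0.23 ± 0.20 (SE, 95% interval -0.67 to 0.20), -0.36 between the replicate 1 arrays and -0.11 between the replicate 2 arrays. The interval leaves room for a level up to 1.15-fold higher or 1.59-fold lower with NSD2.

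Cdkn2d, which encodes p19INK4d, an INK4 protein unrelated to p19ARF despite the shared number, had the largest measured difference of the members. Its probe (ILMN_1225214) stood at 8.03 and 8.25 in control cells and at 7.53 and 7.89 with NSD2. Both NSD2 arrays again lie below both control arrays, and in each group replicate 2 is the higher array. The difference was -0.43 ± 0.21 (SE, unadjusted p = 0.063, limma adjusted p = 0.9996), -0.50 between the replicate 1 arrays and -0.36 between the replicate 2 arrays. Of the 11182 probes above background on at least 1 array of each group, 95.5% had a smaller difference in size. The 95% interval ran from -0.88 to 0.03, that is from 1.84-fold lower to 1.02-fold higher.

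Cdkn2c, which encodes p18INK4c, stood at 8.46 and 8.30 in control cells and at 8.54 and 8.07 with NSD2 at its main probe (ILMN_1228366). The NSD2 arrays enclose the control arrays, so the groups overlap, and the difference was -0.07 ± 0.22 (SE, 95% interval -0.54 to 0.39). It was 0.16 without NSD2 2 and 0.01 without control vector 1. The dimmer Cdkn2c probe (ILMN_1215651), above background on 3 arrays, differed by -0.18 ± 0.21.

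Of the CIP/KIP genes, Cdkn1a has 3 probes that were all above background on all 4 arrays, and they did not share a sign. The main probe (ILMN_2634083) stood at 10.99 and 11.40 in control cells and at 10.88 and 11.06 with NSD2. NSD2 1 is the lowest array and control vector 2 the highest, while the other arrays overlap. The difference was -0.23 ± 0.22 (SE, 95% interval -0.69 to 0.23), -0.11 between the replicate 1 arrays and -0.34 between the replicate 2 arrays, and -0.02 without control vector 2. The second probe (ILMN_2846775) stood at 8.16 and 7.99 in control cells and at 7.86 and 7.88 with NSD2, with no overlap and a difference of -0.21 ± 0.20. The third (ILMN_2846776) stood at 7.89 and 7.66, and at 7.91 and 7.72, with overlap and a difference of 0.04 ± 0.21. The third probe thus differed in sign from the other two, and none passed the test.

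Cdkn1b varied more between replicate numbers than between the groups. Its only probe above background (ILMN_2638428) stood at 8.60 and 7.39 in control cells and at 8.21 and 7.37 with NSD2. Both replicate 1 arrays are high and both replicate 2 arrays low, with a difference of -1.20 (replicate 2 minus replicate 1) in control cells and -0.84 with NSD2. The mean of these 2 values was larger in size than for 99.8% of the 11182 probes, and 18 of them, this one included, were lower on the replicate 2 array by at least the smaller value in both groups. The authors' processed intensities show the same order, 310 and 96.5 in control cells and 224 and 95.2 with NSD2. The group difference was -0.21 ± 0.33 (SE, 95% interval -0.90 to 0.49), the widest interval of the 11 probes. It was -0.39 between the replicate 1 arrays and -0.02 between the replicate 2 arrays. It became 0.40 without control vector 1, 0.21 without NSD2 2 and -0.81 without control vector 2. With 1 array left out the groups no longer hold the same replicate numbers. The difference between replicate numbers then enters the group difference, so these changes of sign do not describe NSD2 alone. The other 2 Cdkn1b probes (5.72 to 6.55) were above background on no array, so the difference between replicate numbers has no second probe.

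**Figure D2:**
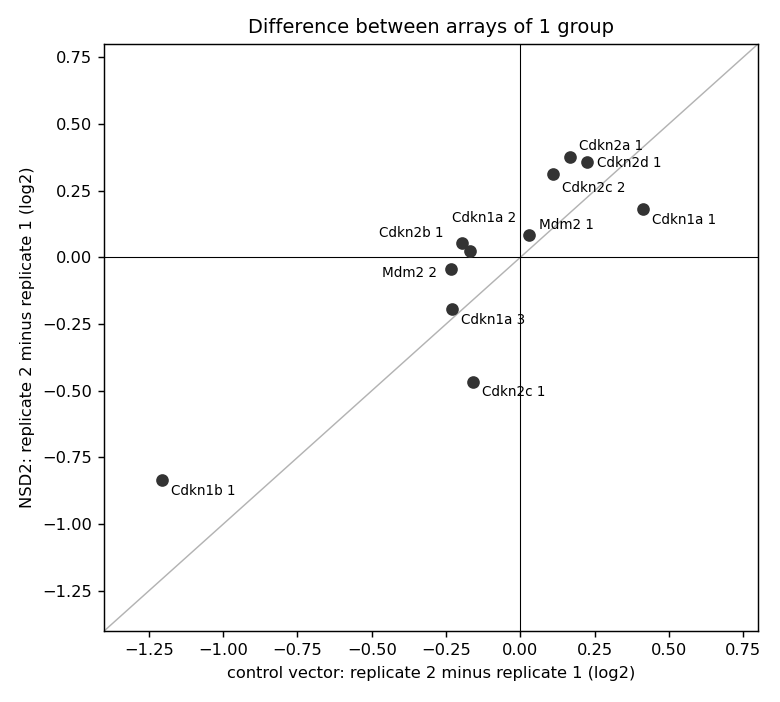
Log2 difference of replicate 2 minus replicate 1 in control cells (horizontal axis) and in NSD2 cells (vertical axis) for the 11 probes above background in both groups, with the line of equal values in grey. Cdkn1b probe 1, at -1.20 and -0.84, lies apart from the other 10 probes.

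On the p53 side of the axis, Mdm2 was well above background at 2 probes. The first (ILMN_1250774) had a bead signal of 2447 to 4754 units and stood at 11.89 and 11.92 in control cells and at 11.54 and 11.63 with NSD2. The arrays of each group are close together, and both NSD2 arrays lie below both control arrays. The difference was -0.32 ± 0.20 (SE, unadjusted p = 0.13, limma adjusted p = 0.9996), with a 95% interval of -0.75 to 0.10. It was -0.35 between the replicate 1 arrays and -0.29 between the replicate 2 arrays, and stayed between -0.37 and -0.28 when any 1 array was left out. The authors' processed intensities were 3799 and 3788 in control cells and 2907 and 2931 with NSD2.

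The second Mdm2 probe (ILMN_2850753) gave overlapping groups. It stood at 11.84 and 11.61 in control cells and at 11.65 and 11.60 with NSD2. NSD2 1 lies between the control arrays, and the difference was -0.10 ± 0.21 (SE, 95% interval -0.54 to 0.33). The third probe (ILMN_1229882), at 6.58 to 6.89, was above background on no array.

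Mdm4 was hardly measurable. Its brightest probe (ILMN_1227293) stood at 6.65 and 6.998 in control cells and at 6.55 and 6.84 with NSD2, and only control vector 2 was above background. Its other probes were above background on no array, so no fold is given for Mdm4.

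Over the 11 measured probes, 9 had lower and 2 higher means with NSD2, against 51.0% lower means among the 11182 probes. By the brightest probe of each gene, 6 genes were lower and 1, Cdkn2a, higher. The median difference of the 11 probes was -0.21 and that of all 11182 was -0.01. Both NSD2 arrays lay below both control arrays at 4 of the 11 probes, 36.4%, 1 each of Cdkn2b, Cdkn2d, Cdkn1a and Mdm2, against 15.1% of all. None lay wholly above, a direction for which the share of all probes was not counted. Probes of 1 gene share their transcripts and these genes share the same 4 arrays, so the count is a description with no test.

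**Figure D3:**
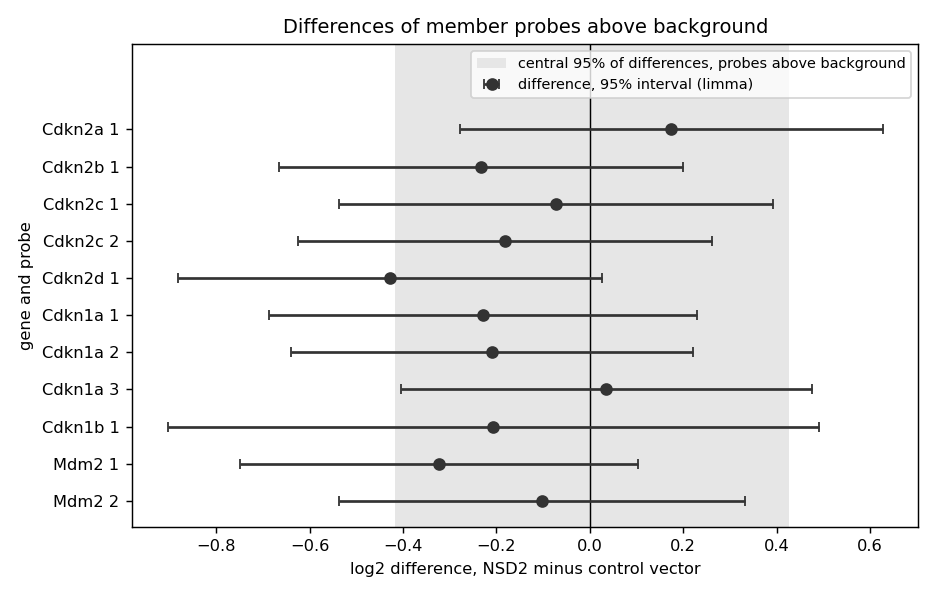
Log2 difference of NSD2 minus control vector (horizontal axis) for the 11 probes, with 95% intervals from the limma fit. The grey band spans -0.42 to 0.43, the central 95% of the differences of the 11182 probes above background in both groups; all 11 intervals include 0, and the point of Cdkn2d lies just outside the band.

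The genes whose pattern over the 4 arrays was most like that of Cdkn2a were Klra4, Cox11 and Mettl25, with root mean square differences of 0.006, 0.01 and 0.02 between log2 values centred on each gene's own mean. The median over the 6901 genes compared, all above background on all 4 arrays, was 0.22. With 4 arrays such likeness is a description only. The same comparison was planned for Trp53 and was not made.

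Genes that act around these members were followed in 7 lists, which are not separate. E2f1 and E2f3 are counted both among regulators of the INK4-ARF locus and among targets of the inhibitors. Ppm1d is counted both among regulators of MDM2 and p53 and among p53 targets. None of their genes passed the test across all probes (limma adjusted p = 0.9996 for each list's smallest). Higher means are given as counts among genes above background on at least 1 array, to be read against 49.6% of 9074 such genes, whose median difference was -0.002.

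Regulators of MDM2 and p53 were evenly divided, with 13 higher and 12 lower of 25 measured above background (median 0.01). The ubiquitin ligase gene Cop1, whose product also targets p53, stood at 9.65 and 9.47 in control cells and at 9.85 and 9.90 with NSD2, a difference of 0.31 ± 0.20. Usp2, a deubiquitinase gene, differed by 0.30 ± 0.20, the checkpoint kinase gene Chek2 by -0.46 ± 0.23 and the acetyltransferase gene Ep300 by -0.31 ± 0.21. These 4 were named for the size of their differences, and the arrays of the groups did not overlap for any of them. Of the 25 genes, each above background on at least 1 array, 6 lay wholly higher and 2 wholly lower with NSD2. Among all 11182 probes above background in both groups, a stricter filter, 15.1% lay wholly lower. The share of all probes lying wholly higher was not counted, so the 6 cannot be read as a result about these genes. Chek1 and Csnk1a1 had an unadjusted p under 0.05 (0.015 and 0.046) and are named after their values were seen, being above background on 3 arrays and 1 array.

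Regulators of the INK4-ARF locus had 8 higher and 16 lower means of 24 (median -0.07), or 33.3% higher. With 1 array left out, between 7 and 12 of the 24 were higher. Zbtb7a, which encodes a repressor of ARF transcription, stood at 9.72 and 9.95 in control cells and at 9.27 and 9.25 with NSD2, a difference of -0.58 ± 0.20 (unadjusted p = 0.012, limma adjusted p = 0.9996). Both NSD2 arrays were lower. The AP-1 gene Jun differed by -0.45 ± 0.23. The Polycomb gene Bmi1, a repressor of the locus, differed by 0.30 ± 0.25 and the helix-loop-helix gene Id1 by 0.33 ± 0.20. Cbx2, another Polycomb gene, named after its value was seen, had an unadjusted p of 0.037 and was above background on 3 arrays. The neighbour Mtap stood at 10.52 and 10.46 in control cells and at 10.73 and 10.23 with NSD2, a difference of -0.01 ± 0.22, and of the 3 neighbours listed 2 were above background, with 0 higher.

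Genes that control the turnover of p21 and p27 had 6 higher and 7 lower means of 13 (median -0.03). Their differences ranged from -0.23 for Cdc20, an activator of the anaphase-promoting complex, to 0.23 for the transcription factor gene Foxo1. Cul4b differed by -0.20 ± 0.25 and the ligase subunit gene Rbx1 by 0.18 ± 0.21. The kinases, cyclins and E2F or retinoblastoma family genes on which the inhibitors act had 6 higher and 10 lower means of 16 (median -0.07). Here E2f4 differed by 0.40 ± 0.21 and the cyclin gene Ccna2 by 0.17 ± 0.22, and E2f3 by -0.31 ± 0.20 and E2f5 by -0.27 ± 0.21.

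Targets of p53 had 12 higher and 15 lower means of 27 (median -0.02), Cdkn1a and Mdm2 being among the 27. Ddb2, a DNA repair gene, stood at 7.67 and 7.75 in control cells and at 8.08 and 8.11 with NSD2, a difference of 0.38 ± 0.20. Trp53inp1 differed by 0.38 ± 0.22 and Phlda3, an inhibitor of AKT, by -0.38 ± 0.21. Differences of either sign were thus present among the p53 targets. Of the further inhibitors and p53 relatives, Cdkn1c (p57) was above background on 3 arrays and differed by 0.20 ± 0.23, and Trp63, Trp73 and Cdkn2aip were above background on no array.

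**Figure D4:**
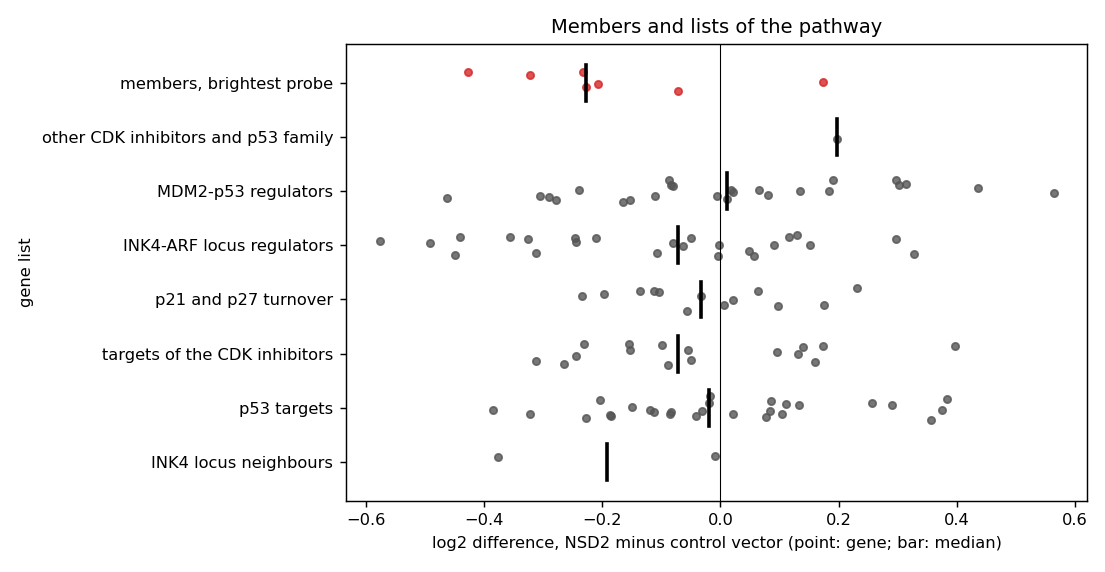
Log2 difference of NSD2 minus control vector (horizontal axis) for the 7 measured members and for the genes of each list above background on at least 1 array; each point is a gene and the black bar is the median. The medians of the 4 largest lists lie between -0.07 and 0.01, and that of the members at -0.23.

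By the brightest probe, the signs of 3 members turned when 1 array was left out, and those of the others did not. Cdkn2a, Cdkn2c and Cdkn1b were the 3. By the brightest probe or the mean of a gene's probes, Cdkn2b, Cdkn2d, Cdkn1a and Mdm2 stayed lower under each of the 14 alternatives. The other probes of a gene were not followed alone, among them the third Cdkn1a probe, higher with NSD2 by 0.04. At the second Mdm2 probe the NSD2 mean of 11.62 lay above control vector 2 at 11.61. Its sign therefore turns without control vector 1. With 1 array left out, differences between replicate numbers enter the group difference, most of all for Cdkn1b.

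**Figure D5:**
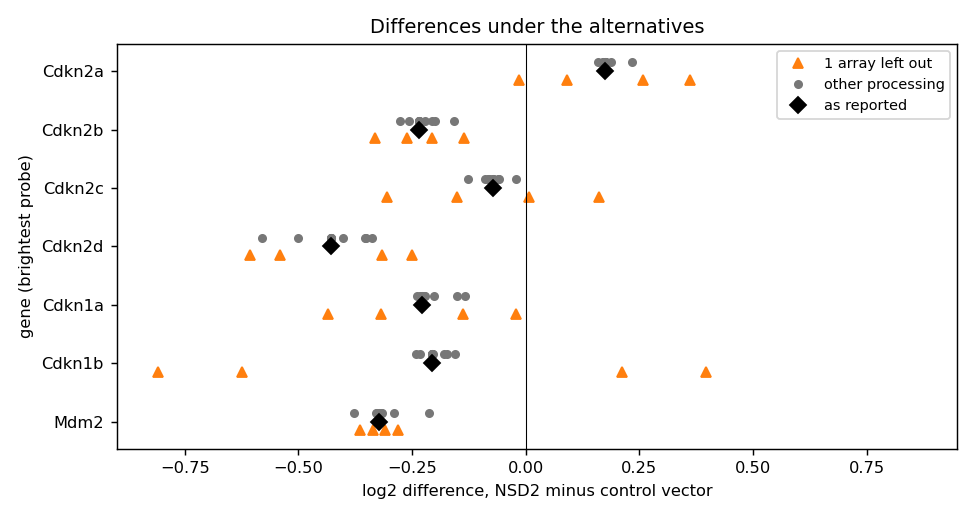
Log2 difference of NSD2 minus control vector (horizontal axis) for the 7 measured members as reported (black diamonds), with 1 array left out (orange triangles) and under other processing (grey circles). By the brightest probe, the triangles of Cdkn1b span -0.81 to 0.40 and those of Mdm2 -0.37 to -0.28. With 1 array left out, the groups no longer hold the same replicate numbers.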

How the data were processed

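Per the labels, RNA was amplified and biotin-labelled for Illumina bead arrays. The deposited signal table gives an intensity, the average bead signal, for each probe on each array, per the file headers, on a linear scale with no detection p-values. The second deposited table holds the authors' processed intensity, by a method not given in the sources used here. It kept the order of the probes on each array, and its column medians were 48.7, 42.4, 48.6 and 42.3. With values under 16 set to 16, its log2 was an alternative; it was also the source of the processed values printed. Groups and replicate numbers came from the sample titles (2 arrays per group here, where the design text names triplicates).

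The plan was neqc where detection p-values exist, and otherwise, as here, normexp (offset 50) with quantile normalization, in limma 3.58.1 and R 4.3.3. The offset understates differences of dim probes. Groups were compared with lmFit and eBayes over all 25697 probes, with no covariate, a two-sided test and Benjamini-Hochberg adjustment at 0.05. The background threshold of each array was the upper 5% point of the dim side of its log2 signals mirrored about the mode. The fit was also run on simulated data with independent noise. No difference between replicate numbers was simulated, so that run says nothing about the one seen here.

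Symbols came from the platform annotation (23978 probes named, 1719 unnamed here, 0 changed by a RefSeq table). Each gene is given by its brightest probe. The other probes are given beside it for the members and not for the list genes. From each list, up to 2 genes per direction above background on all 4 arrays are named. Members and lists were chosen with earlier results of these data known. Alternatives were the offset, background correction, normalization, the authors' values, a background filter, moderation, the replicate number, the probe and each array left out.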

Additional observations from a re-analysis of the deposited data

How the results depend on the processing

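None of the 7 measured genes passed the test under any of the 13 settings of the whole fit. None passed with the mean of a gene's probes above background. Mdm4 was not followed in these alternatives. By the brightest probe or the mean of a gene's probes, Cdkn2b (-0.33 to -0.14), Cdkn2d (-0.61 to -0.25), Cdkn1a (-0.43 to -0.02) and Mdm2 (-0.38 to -0.21) kept their sign in all 14 alternatives. The others did so except when 1 array was left out: their ranges were then -0.014 to 0.36 for Cdkn2a, -0.31 to 0.16 for Cdkn2c and -0.81 to 0.40 for Cdkn1b. An unadjusted p under 0.05 was reached by Cdkn2d and Mdm2 (1 probe each) without background correction and with an offset of 100, by Cdkn2d with the replicate number in the fit and without NSD2 2, and by Cdkn1b without control vector 2. Without control vector 1 it was reached only by the second Cdkn2a probe, which was above background on no array and for which no difference is given; the main Cdkn2a probe then had a p of 0.75.

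Of all probes, 4 passed in the fit reported, 0 with an offset of 16, median scaling, the authors' processed values or only probes above background on all 4 arrays (limma, 1105, 327, 1584 and 331 at an unadjusted p under 0.05), 13 with trended robust moderation, and 5 to 15 with 1 array left out, the lone array then being assumed to vary like the other group. With the replicate number as a block in the fit 48 passed, 0 of them probes of the 7 measured genes. The labels give no more than the number, and across probes replicate 2 minus replicate 1 in control cells correlated with that in NSD2 cells at 0.47 over those above background in both groups and at 0.24 over all (a description, 2 pairs). No list gene passed under any setting. The count of higher genes moved by over 1.5 times only in the smallest lists: among the neighbours of the locus from 0 to 1 with median scaling and to between 0 and 1 with 1 array left out, and among the further inhibitors from 1 to between 0 and 1 with 1 array left out. The filter on all 4 arrays left no gene of the latter. Smaller moves also occurred in larger lists. Among the p53 targets, 16 of 27 were higher with median scaling, against 12 in the fit reported. The median difference of all genes was then 0.04. Signal over background limits Mdm4 and the 6 probes above it on no array.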
